A study of Danio rerio with 9 samples.

Results

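Transcript levels were compared at 3 consecutive stages of zebrafish (Danio rerio) development: 64-cell (cleavage), high and sphere (both blastula). These are 3 of the 9 stages of a series that runs to tailbud, taken by their labels, with 1 array each. All embryos were uninjected, outbred wild type kept at 28.5 °C. At each stage 30 to 50 embryos of 1 clutch were combined, so no stage had a replicate and the spread between embryos or clutches was not measured. No other treatment or genotype was used. Each array carried stage RNA in red (Cy5) and, in green (Cy3), a reference pool of equal total RNA from all 9 stages, which every stage shared. Of 16178 probe IDs, 16088 stood above the local background in at least 1 channel on each of the 3 arrays and were retained.

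A zebrafish embryo starts development on messenger RNA that the mother stored in the egg. During cleavage the embryo's own genome is nearly silent, and its broad transcription begins at the mid-blastula transition, close to the high stage. Stored transcripts are then cleared, partly through microRNAs of the miR-430 family, while new zygotic transcripts accumulate. The 3 stages span this change: 64-cell lies before it, high near its start and sphere shortly after. No source used here links the oligonucleotide IDs to genes, so individual probes are given by ID, and no stage marker could be looked up. Only 1 probe could be named, that for rarga.

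The 3 arrays differed in brightness. Over probe spots, the median Cy5 signal was 995 at 64-cell, 508 at high and 526.5 at sphere, while the median Cy3 signal of the pool was 965, 851.5 and 924. The Cy5 signal exceeded the 95th percentile of the 262 blank spots for 10294 probes at 64-cell, 9097 at high and 9187 at sphere. It did so on all 3 arrays for 8617 probes and on none for 5590. Scanner software flagged 11.1% of the probe spots at 64-cell, 14.3% at high and 2.49% at sphere. Ratios below are log2 of stage over pool after loess within each array, which centres every array on its own probes. They are therefore shares relative to the other probes and not amounts per embryo. Without normalization the median probe moved by -0.72 from 64-cell to high and by -0.11 from high to sphere on the log2 scale, so every direction below is relative to that shift.

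At 64-cell the embryo's RNA lay farthest from the pool, and the distance shrank at each stage. The standard deviation of the log2 ratio over probes was 0.86 at 64-cell, 0.81 at high and 0.70 at sphere. The number of probes at least 2-fold below the pool was 1700 at 64-cell, 1579 at high and 1341 at sphere. At least 4-fold below it were 648, 528 and 368 probes in the same order. At least 2-fold above the pool were 665, 644 and 415 probes, so under-represented transcripts outnumbered over-represented ones. At 30% epiboly, the next stage of the series, 518 probes were at least 2-fold below and 149 above. More probes lay below than above on every later array too, with 609 and 100 at 75% epiboly and 891 and 159 at 90% epiboly. The excess of probes below the pool was therefore not particular to the early stages.

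The probes that were rich or poor at 64-cell mostly stayed so at high. Of the 665 probes at least 2-fold above the pool at 64-cell, 388 were still so at high and 188 at sphere, and their median log2 ratio went from 1.19 to 1.06 and 0.80. It was -0.48 at 30% epiboly. Of the 1700 probes at least 2-fold below the pool at 64-cell, 1351 remained so at high and 1165 at sphere, with medians of -1.68, -1.51 and -1.31. Because these probes were chosen on the 64-cell array, some movement toward the pool on other arrays comes with the choice.

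The step from 64-cell to high was small. At high, 61 probes (0.379% of those retained) were at least 2-fold higher than at 64-cell, and 66 (0.41%) were at least 2-fold lower. At least 4-fold higher were 8 probes (0.0497%) and at least 4-fold lower 10 (0.0622%). The standard deviation of the log2 difference over probes was 0.30, with quartiles at -0.14 and 0.18. With median centring in place of loess, 65 probes were higher and 98 lower, so the near balance of directions depended on the scaling.

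The step from high to sphere held more change, and more of it upward. At sphere, 229 probes (1.42%) were at least 2-fold higher than at high and 106 (0.659%) at least 2-fold lower. Among differences of at least 4-fold the excess of higher probes was larger, with 55 probes higher (0.342%) and 6 lower (0.0373%). The standard deviation over probes was 0.39, with quartiles at -0.18 and 0.20. Median centring gave 235 higher and 160 lower probes. Among the 8617 probes above the blank spots on all 3 arrays, 104 were higher and 82 lower. This restriction also removes transcripts that were near the blank level at high, including increases from near absence.

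Since no stage was repeated, these differences were set against measures of technical scatter. The same pool was hybridised on every array. In the pool channel alone, normalized between arrays, 111 probes (0.69%) differed at least 2-fold between the 64-cell and high arrays and 88 (0.547%) between high and sphere. The stage channel, treated identically, gave 235 (1.46%) and 456 (2.83%). The pool channel thus held 111 probes against 235 at the first step, and 88 against 456 at the second. Single channels keep spot-to-spot differences that a ratio cancels, so the pool channel is no exact error of the ratios. Across 127 IDs printed on more than 1 spot, the spots of an ID differed in their log2 step with a root mean square SD of 0.25 at the first and 0.31 at the second step (median SD 0.16 at both). No p-value can be given for either step, as each compares single arrays.

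**Figure D1:**
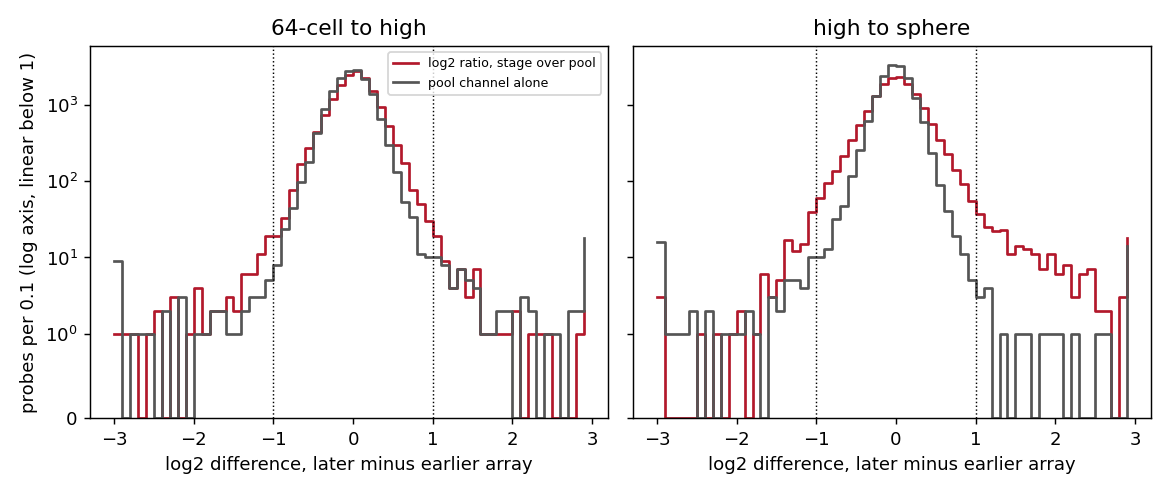
Number of probes (log axis) by log2 difference between consecutive arrays, for the ratio of stage over pool (red) and for the pool channel alone (grey), with 2-fold marked by dotted lines and values beyond 3 collected in the end bins. From 64-cell to high the ratio is not clearly wider than the pool channel. Its interquartile range is 0.32 against 0.29, but its SD is 0.30 against 0.33. At least 4-fold higher and lower are 8 and 10 probes in the ratio, and 29 and 17 in the pool channel. From high to sphere the ratio is wider, with an SD of 0.39 against 0.32. It has a long upper tail there, with 229 probes at least 2-fold higher and 106 lower.

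The difference between the steps was present among probes of every brightness. In the dimmest of 3 equal groups 0.261% of the probes differed at least 2-fold at the first step and 0.559% at the second. In the middle group the shares were 0.914% and 2.07%, and in the brightest 1.19% and 3.62%. Probes dim by this measure therefore did not make up most of the differences. Brightness here averages both channels, so a stage signal near the blanks can be offset by a bright pool. In Cy5, 104 of the 229 probes higher and 82 of the 106 lower at sphere exceeded the blank spots on all 3 arrays. For the first step these were 31 of the 61 higher and 30 of the 66 lower probes. In the brightest group, 129 probes were higher and 65 lower at sphere than at high. Position on the slide also mattered, as the median step of the 32 print blocks lay between -0.22 and 0.20 at the first and between -0.16 and 0.27 at the second step, a range wider than that between the quartiles over all probes. Loess within each block gave 58 higher and 59 lower probes at the first step and 239 and 93 at the second.

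Whether the channel of the stage or that of the pool moved was read for each set of called probes. The ratio step is the stage step less the pool step. A called probe whose pool channel moved less than 0.5 therefore must have a stage channel that moved more than 0.5. The joint counts below thus only say how often the pool channel stayed within that limit. Over all retained probes it did so for 95.6% at the first step and 97.1% at the second. Of the 229 probes higher at sphere than at high, 214 (93.4%) had a stage channel that moved at least 0.5 the same way on the log2 scale and a pool channel that moved less than that. For the 106 lower probes this held for 90 (84.9%). For the first step the shares were smaller, at 45 of the 61 higher (73.8%) and 48 of the 66 lower probes (72.7%). In 13 of those 61 the pool channel itself was lower by at least 0.5 at high. Flags were also more frequent in these sets: 31.1% of the 61 and 36.4% of the 66 probes carried a flag on at least 1 of the 3 arrays. The share was 20.5% of all retained probes, 23.6% of the 229 and 29.2% of the 106, so frequent flags were not particular to the first step. The part of flagged spots in these counts was not tested beyond leaving them out.

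Over both steps together, from 64-cell to sphere, 299 probes (1.86%) were at least 2-fold higher and 175 (1.09%) at least 2-fold lower. At least 4-fold higher were 93 probes (0.578%), and at least 4-fold lower 15 (0.0932%). Median centring gave 290 higher and 394 lower probes, so which direction was more frequent at 2-fold depended on the scaling. Above the blank spots on all 3 arrays, 135 probes were higher and 140 lower. The 299 probes stood above the blank spots in 158 cases at 64-cell, 144 at high and 253 at sphere. For the rest the early level is poorly measured and the fold uncertain.

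These 474 probes were chosen on the 64-cell and sphere arrays only, and their level was then read at high. Choosing probes on the difference between the end arrays by itself favours a value at high that lies between them, so the counts below describe these probes and do not test whether change ran through. For reference, probes chosen in the same way in the pool channel alone, a comparison chosen after seeing the data, had a value at high between the others for 24 of 56 higher (42.9%) and 29 of 54 lower probes (53.7%). In the stage channel alone, the like measure to the pool channel, this held for 267 of 334 higher (79.9%) and 221 of 276 lower probes (80.1%). Among the 299 higher probes, the ratio at high lay between the 64-cell and sphere values for 271 (90.6%), beyond the 64-cell value for 25 and beyond the sphere value for 3. For 230 of them high was nearer to 64-cell than to sphere. The median share of the increase already present at high was 27.5%, the median first step 0.41 and the median second step 1.16. The second step was thus the larger one in the median of these probes. In the pool channel the corresponding median share at high was 89.3% for higher probes and 60.7% for lower ones. In the stage channel it was 20.2% and 38.0%. Among the 93 probes at least 4-fold higher, the share present at high was 22.3%, and high lay between the others for 90.

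The decreases were spread more evenly. Among the 175 lower probes, high lay between the other values for 144 (82.3%), beyond the 64-cell value for 18 and beyond the sphere value for 13. The median share of the decrease present at high was 38.7%, with a median first step of -0.47 and second step of -0.77. Restricted to the 140 above the blank spots on all 3 arrays, the share was 34.5%. The 15 probes at least 4-fold lower behaved otherwise, with a share at high of 82.9%. Of these, 60% carried a flag on at least 1 of the 3 arrays, and 10 were higher again at 30% epiboly than at sphere.

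**Figure D2:**
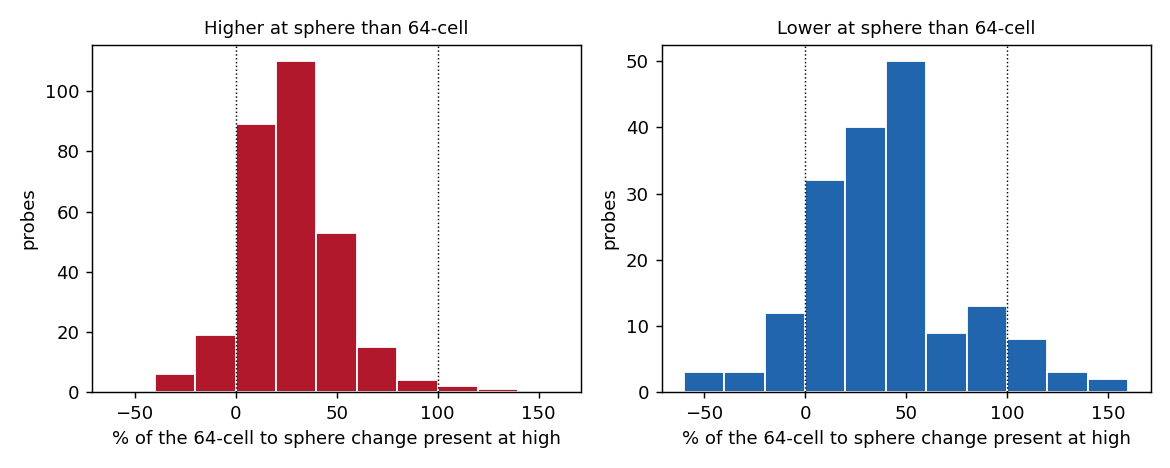
Number of probes by the percentage of their 64-cell to sphere change in log2 ratio that was present at high, for the 299 probes at least 2-fold higher at sphere (left) and the 175 lower (right), with values outside the axis placed in the end bins. Most probes lie between 0 and 60%, with medians of 27.5% and 38.7%; the choice of the probes favours values between 0 and 100%.

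The later arrays were not used to choose these probes. The median ratio of the 299 higher probes was -2.59 at 64-cell, -2.12 at high, -0.77 at sphere and 0.49 at 30% epiboly. It was 0.34 at 50% epiboly, 0.39 at shield and -0.02 at tailbud. The difference widened past sphere, since 263 of the 299 were higher at 30% epiboly than at sphere and 174 at least 2-fold higher, against 9 at least 2-fold lower. Over all 16088 retained probes, 8933 were higher at that step, 7.45% at least 2-fold higher and 6.53% at least 2-fold lower. Of the 1700 probes at least 2-fold below the pool at 64-cell, 1650 were higher and 977 at least 2-fold higher. At 64-cell 259 of the 299 lay that far below the pool, so this rise was not particular to the 299. The median of the 175 lower probes went from 1.01 to 0.45, -0.24 and -0.61 at 30% epiboly. It stayed between -0.48 and -0.39 from 50% to 90% epiboly. Of these 175, 42 were at least 2-fold lower at 30% epiboly than at sphere and 21 higher. At 64-cell 89 of the 175 lay at least 2-fold above the pool. Of all 665 probes that far above it, 419 were at least 2-fold lower at 30% epiboly than at sphere and 3 higher. The later fall was therefore not particular to the 175 and was less frequent among them. The 299 and the 175 share the sphere array with that step, so scatter of this array pulls toward reversal and not toward continuation.

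**Figure D3:**
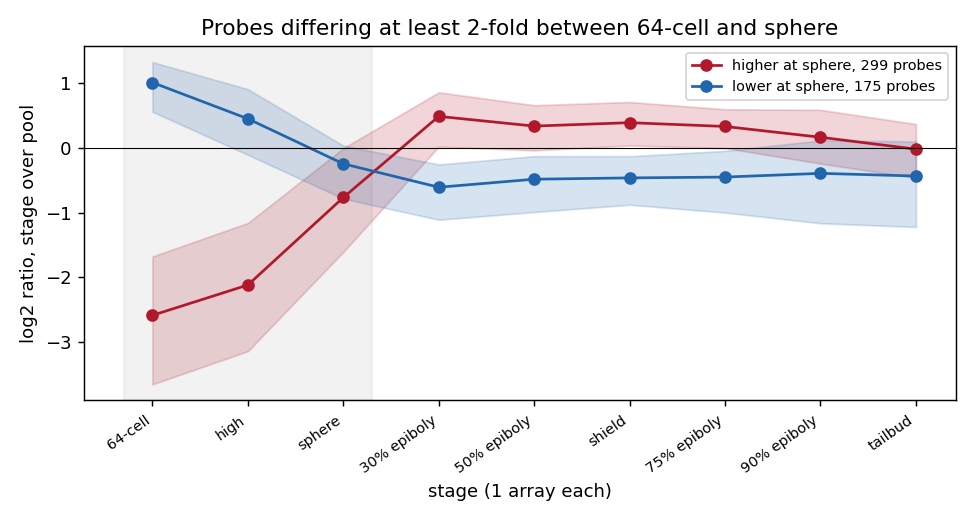
Median log2 ratio of stage over pool (points) with quartiles (bands) at all 9 stages, for the 299 probes at least 2-fold higher at sphere than at 64-cell (red) and the 175 lower (blue). The grey area marks the 3 arrays described here: the red median goes from -2.59 to -0.77 within it and to 0.49 at 30% epiboly, and the blue from 1.01 to -0.24 and then -0.61.

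Step by step, continued and reversed courses can be counted directly, with the limit that both steps share the high array and its scatter alone makes reversals. Of all retained probes, 133 (0.827%) moved at least 0.5 on the log2 scale the same way at both steps and 382 (2.37%) moved that far in opposite ways. In the pool channel alone, where the RNA was the same, the counts were 9 and 176. The stage channel alone, which is the like measure to the pool channel, gave 143 and 517. Among continued courses 93 were rises and 40 falls. Restricted to probes above the blank spots on all 3 arrays, 34 were rises and 36 falls. The excess of rises thus rested on probes with a Cy5 signal at the blank level on at least 1 array. Of the 93 rises, 37 exceeded the blank spots at 64-cell and 85 at sphere, and of the 40 falls 38 and 36. The restriction therefore also removes rises from near absence, while it keeps most falls. Among reversed courses 177 went up and then down and 205 down and then up, leaving a median difference between 64-cell and sphere of -0.07 and 0.05. The 93 rising probes had medians of -3.01, -2.14 and -0.53 at the 3 stages and 0.60 at 30% epiboly. The 40 falling probes had 1.06, 0.39 and -0.29, then -0.52.

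Most probes called at the first step did not move at least 2-fold the same way at the second. The choice used the high array, which both steps share, so its scatter favours reversal. Of the 61 probes at least 2-fold higher at high, 20 (32.8%) rose at least 2-fold again at sphere. Another 12 (19.7%) were at least 2-fold lower there. Over all retained probes these shares were 1.42% and 0.659%. Of the 66 lower at high, 1 (1.52%) was at least 2-fold lower still at sphere and 22 (33.3%) were higher. The median ratio of the 66 went from 0.54 to -0.93 and back to -0.11. A later step that shares no array with the first is sphere to 30% epiboly. There, 20 of the 61 were at least 2-fold higher and 8 lower, while 9 of the 66 were higher and 8 lower, where 7.45% of all retained probes were higher and 6.53% lower. At 64-cell, however, 40 of the 61 lay at least 2-fold below the pool. Of all 1700 probes that far below it, 977 were at least 2-fold higher at 30% epiboly than at sphere. The later rise was therefore not particular to the 61. Of the 66, 32 had their lowest value of all 9 stages at high, which the choice of these probes on that array favours.

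Levels at later stages, measured on arrays outside the window, were then used to group the probes. The 149 probes at least 2-fold above the pool at 30% epiboly had a median step of 0.21 from 64-cell to high and of 0.47 from high to sphere. Of these, 41 (27.5%) were at least 2-fold higher at sphere than at high and 0 lower, against 1.42% and 0.659% of all retained probes. Of the 149, 78 stood above the blank spots at 64-cell, 69 at high and 90 at sphere. Many of their early steps thus rest on signals at the blank level. The 518 probes at least 2-fold below the pool at 30% epiboly had median steps of 0.01 and -0.28, and 38 of them (7.34%) were at least 2-fold lower at sphere. Probes high or low at 30% epiboly thus had a median step in that direction from high to sphere. Their median ratios at sphere were 0.04 and -0.11, but the probes were spread widely around them. The quartiles at sphere were -0.54 and 0.82 for the 149 and -1.53 and 0.61 for the 518. Of the 518, 179 were at least 2-fold below the pool at sphere and 39 above. At 64-cell 169 of them were already that far below and 144 above. At the first step 8 of the 149 (5.37%) were at least 2-fold higher and 9 of the 518 (1.74%) lower, against 0.379% and 0.41% of all retained probes.

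Grouping by the tailbud array gave another picture. The 365 probes at least 2-fold above the pool at tailbud had a median first step of 0.24 and a median second step of -0.07. Of these, 292 were higher at high than at 64-cell, against 8764 of all 16088 retained probes. At sphere, 3 of the 365 (0.822%) were at least 2-fold higher than at high, against 1.42% of all retained probes. The 953 probes at least 2-fold below the pool at tailbud had medians of 0.04 and -0.03. From high to sphere, however, 33 of them (3.46%) were at least 2-fold higher and 36 (3.78%) lower. Over all retained probes these shares were 1.42% and 0.659%. In the tailbud-rich group, 149 of 365 probes stood above the blank spots at 64-cell and 97 at high, so its small first step rests on many signals at the blank level.

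**Figure D4:**
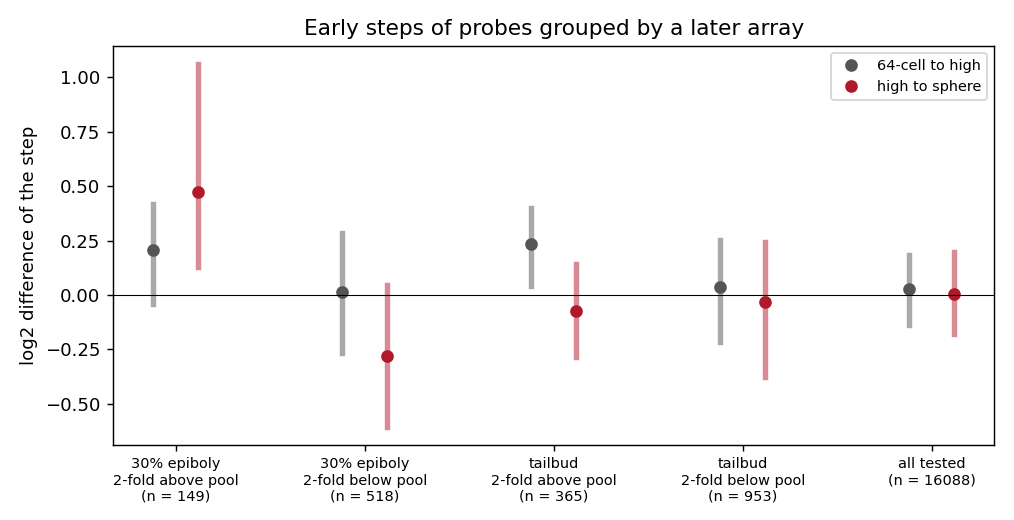
Median (points) and quartiles (bars) of the log2 step from 64-cell to high (grey) and from high to sphere (red), for probes grouped by their ratio at 30% epiboly or tailbud and for all retained probes. The group rich at 30% epiboly stands out with a second step of 0.47, and the group poor at 30% epiboly with -0.28.

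Individual probes were taken by size among those above the blank spots, unflagged and under a signal of 65000 in both channels. CGENXEB_456013104_0 had the largest difference from 64-cell to high and also the largest continued rise. Its Cy5 signal was 1286 at 64-cell, 3932 at high and 14660 at sphere, and its log2 ratio -3.52, -0.50 and 2.84. That is 8.11-fold higher at high and a further 10.1-fold at sphere. Its ratio was lower at the later stages, at 1.33 at 30% epiboly, -1.22 at 50% epiboly and -4.32 at tailbud. In the pool channel alone it was lower by -1.34 at sphere than at high, and its stage channel alone gave a smaller second step than the ratio's 3.33.

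Under the same limits, the largest rises from high to sphere took 2 probes from far below the pool to close to it. Larger rises, up to 4.65 on the log2 scale, were left out by these limits. CGENXEB_456015173_0 had Cy5 signals of 1371.5, 772 and 8869 and ratios of -5.20, -4.70 and -0.78, which is 15.2-fold higher at sphere than at high. CGENXEB_456007052_0 had Cy5 signals of 651, 489 and 6667 and ratios of -5.47, -4.60 and -0.71, which is 14.9-fold higher. Both were far below the pool at 64-cell and high, and the ratio of the second was 1.82-fold higher at high than at 64-cell. Its Cy5 signals there were little above the 95th percentile of blanks, 596 at 64-cell and 421 at high. Both of its folds are therefore uncertain. At 30% epiboly their ratios were 0.84 and 1.15, above sphere in both cases. Their pool channels moved by -0.33 and -0.06 at the second step.

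Probes lower at high or sphere took several courses. CGENXEB_456001074_0 was 7.46-fold lower at high than at 64-cell, with ratios of 1.49, -1.41 and -0.84 and Cy5 signals of 16249, 660 and 1156. CGENXEB_456007495_0 was 3.08-fold lower at high, with ratios of 0.81, -0.82 and -0.76. CGENXEB_456001074_0 rose by 0.57 from high to sphere but stayed below its 64-cell level, while CGENXEB_456007495_0 kept the lower level. Both lay near the pool at 30% epiboly, with ratios of 0.09 and -0.26. CGENXEB_456013900_0 was 5.28-fold lower at sphere than at high after a higher value at high, with ratios of 0.41, 1.54 and -0.86, and it reached -2.16 at 30% epiboly. CGENXEB_456000748_0 had the largest continued fall, with ratios of 2.26, 1.20 and -0.48 and Cy5 signals of 62764, 12598 and 5003. It was 2.08-fold lower at high and a further 3.20-fold lower at sphere, and its ratio was -2.99 at 30% epiboly and -3.63 at tailbud.

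The leading reversals differed in the channel that moved. CGENXEB_456015814_0 had ratios of -1.54, 1.29 and -1.63, but its Cy3 signal was 2307 at 64-cell, 458 at high and 2156 at sphere. Its stage channel alone moved by 0.21 and -0.33, so nearly all of its course lay in the pool channel of the high array. CGENXEB_456008411_0 went the other way, with ratios of 0.21, -1.27 and 0.38. Its Cy5 signals were 3618, 651 and 2158 while Cy3 stayed at 1891, 1909 and 2006, so here the stage channel moved.

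**Figure D5:**
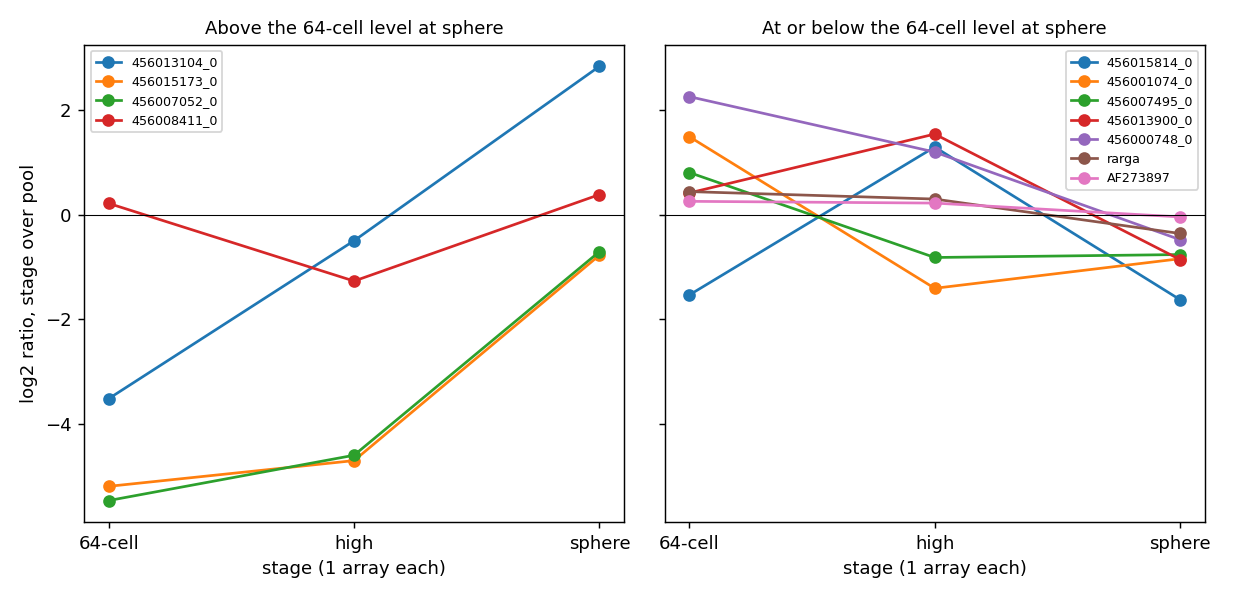
Log2 ratio of stage over pool at 64-cell, high and sphere, 1 array each, for the probes named in the text, labelled by the last part of the ID. The left panel holds those higher at sphere than at 64-cell, where CGENXEB_456015173_0 moves by 0.49 and then 3.93 and CGENXEB_456007052_0 by 0.87 and then 3.89, and the right panel the others.

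The gene rarga encodes a retinoic acid receptor of the gamma type, which sits in the nucleus and switches on target genes when it binds retinoic acid. Its Cy5 signal was 5294.5 at 64-cell, 1634 at high and 1368.5 at sphere, above the blank spots each time. Its log2 ratio was 0.44, 0.30 and -0.36. The steps were -0.14 and -0.66, the latter 1.58-fold lower at sphere than at high, a difference between single arrays with no error of its own. At that step the stage channel alone moved by -0.29 and the pool channel alone by 0.37, so over 1 channel contributed to the ratio. The probe AF273897, which matched no gene in the name tables, did not exceed the blank spots on any of the 3 arrays, and its ratios were 0.25, 0.22 and -0.04.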

How the data were processed

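Per the file headers, the deposited scanner tables are combined ImaGene output with red as channel 1 and green as channel 2. They hold spot and background intensity on a linear scale, not normalized. Neither the software's version nor the meaning of its flags is stated in these sources. The authors' deposited value table holds log2 values. On the 64-cell array 99.2% of them matched, within 0.001, a red over green ratio of background-subtracted spot means, so they were read as stage over pool without any centring.

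Spot means were background-corrected in limma 3.58.1 (R 4.3.3) by normexp with an offset of 50 against background medians. Each array was then loess normalized (span 0.3), giving control spots a weight of 0. Spots of an ID were averaged as log2 ratios. A probe was retained when, on each of the 3 arrays, its spot median in either channel was over 2 background SD above the local background median. Single channels were loess and Aquantile normalized over the 3 arrays. Recovery of known log2 changes after normalization, with their calling at 2-fold, was tested on a copy of a measured array with such changes added. Counting of 4-fold and 0.5 log2 steps was not tested in this way. All 9 arrays have the same dye orientation per the labels and the red and green channel names in the file headers, although the series text mentions dye swaps. A swapped array would turn the sign of its ratios. With 1 orientation, a dye effect constant over arrays cancels between stages, and one that differs does not. With 1 array a stage, precision is limited by the array number.

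The IDs used start with CGENXEB_, plus 2 accession IDs, of which 1 matched the RefSeq table (GRCz12tu, used for the name alone). For each step the 2 highest and 2 lowest IDs, and 1 ID for each course, were named among probes above blanks, with flag 0 and signals under 65000. The stages, sets and rules were chosen with earlier results of these data known, and the grouping by later arrays and the channel counts after seeing the data. Alternatives covered background correction, normalization, spot summary, filters, the authors' table and the stage channel.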

Additional observations from a re-analysis of the deposited data

Results flagged for a closer look

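Control spots were left out of every comparison, and 3 kinds were brighter in Cy5 than the blanks on all 3 arrays. For CGENZFCTRL_40001_0 (172 spots) the lowest median Cy5 signal was 15.2 times the 95th percentile of blanks, with mean log2 ratios of -0.87, -1.05 and -0.84 at 64-cell, high and sphere. The 31 pooled control spots reached at least 18.5 times that level, with ratios of -1.08, -1.03 and -0.91. For the 16 polyA spots it was 2.22, with ratios of -0.13, 0.08 and 0.34. The labels do not say which RNA these spots measure.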

How the results depend on the processing

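Counts are given in the order 64-cell to high (higher, lower), high to sphere (higher, lower), 64-cell to sphere (higher, lower), then probes moving the same way and in opposite ways, and include only those that left the main value by over 1.5 times. Of 142 recomputed values under 12 settings, 102 stayed within that range and 40 did not. Without background correction 40 were lower at high, 67 lower at sphere than at high and 209 moved in opposite ways. Median centring gave 160 lower at sphere than at high and 394 lower than at 64-cell. Without normalization there were 9 and 2891 at the first step, 237 lower at the second, 106 and 4883 over both, and 1282 moving the same way. Restricting to probes above blanks on all 3 arrays, which leaves 8617, gave 31 and 30 at the first step, 104 higher at the second, 135 higher over both, and 70 and 233 by course. Leaving out flagged spots gave 42 lower at high. The authors' value table as deposited gave 14 and 5727, 345 and 280, 113 and 7411, then 1498 and 1166. With its medians subtracted it gave 102 and 140, 385 and 235, 341 lower over both and 650 in opposite ways. The stage channel alone gave 119 and 116 at the first step, 168 lower at the second and 276 lower over both. The share of the change present at high was -13.2% for rises and 71.8% for falls without normalization, and -18.1% and 79.0% in the uncentred authors' table, where the shift of all probes at the first step enters each value. The remaining causes were not tested. Of 260 recomputed steps of the named probes, 211 stayed within the scatter of repeated spots and 49 did not. No step of at least 2-fold of a named probe changed sign under any of these settings, although CGENXEB_456015814_0 dropped to 0.21 and -0.33 in the stage channel. No paired analysis was possible because each stage has 1 array and the labels give no replicate numbers. Signals at the blank level limit the folds of dim probes.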

Other observations

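The stage of the most extreme ratio over all 9 arrays differed between the sets. Of the 299 probes higher at sphere than at 64-cell, 99 had their highest value at 30% epiboly, 44 at 75% epiboly, 39 at tailbud, 36 at shield and 24 at sphere itself. Their lowest value lay at 64-cell for 249 and at high for 24. Of the 175 lower probes, 131 had their highest value at 64-cell and 16 at high, and their lowest lay at sphere for 45, at 90% epiboly for 33, at 30% epiboly for 31 and at tailbud for 30. The 64-cell and sphere arrays were used to choose these probes, so their own shares are partly fixed by the choice. Among the 7 higher probes printed on more than 1 spot, every spot was at least 2-fold higher for 6, and among the 3 such lower probes every spot was at least 2-fold lower for 3. At the first step all spots passed 2-fold for 3 of 4 higher and 3 of 3 lower probes. At the second they did for 3 of 5 higher probes, and no lower probe had more than 1 spot. The mean of these same spots chose the probes, so their agreement is partly fixed by the choice.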
